A study of Mus musculus with 12 samples.

Results

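The growth hormone pathway of the liver was followed through 10 genes: the male-biased target enzymes Hsd3b5, Elovl3, Cyp4a12a, Cyp4a12b and Cyp2d9, the growth hormone receptor Ghr, the transcription factor Stat5b, the feedback inhibitor Socs2, and the repressors Bcl6 and Cux2. All probes annotated to these genes in the deposited table were taken, 15 of the 45281 on the array. A probe entered the tests when its detection p-value was below 0.05 on at least 3 of the 12 arrays, and each gene was then read from its brightest probe. By that rule 8 of the 10 genes were tested among 10641, and Stat5b and Cux2 were not.

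Total RNA came from livers of age-matched male B6 mice and was hybridised to Illumina bead arrays, 3 arrays for each of 4 groups. The groups were normal hepatocytes, fully malignant hepatocellular carcinoma (HCC) induced by injection of the carcinogen DEN (diethylnitrosamine), and premalignant hepatocytes in a non-aggregate and an aggregate fraction, all freshly isolated. The non-aggregate cells were carcinogen-exposed too, so they are not an untreated baseline for the aggregates. The labels give no ages, do not say whether the normal mice received an injection of vehicle, do not describe how aggregates were separated, and do not say whether the replicates of a group came from separate mice. The p-values therefore measure only the spread between these samples, which may be technical. Normal hepatocytes and HCC were run on 1 chip and both premalignant fractions on another, so that for any comparison across the chips, chip and group cannot be told apart. In these bulk samples fewer cells of a type and less RNA per cell cannot be told apart either.

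Growth hormone released by the pituitary binds Ghr on hepatocytes, the receptor activates the kinase JAK2, and JAK2 phosphorylates STAT5 proteins, of which STAT5b is the main form in liver. STAT5 enters the nucleus and binds DNA, and it switches on its own inhibitors, Socs2 and Cish, which end the signal. Male mice secrete growth hormone in pulses and females more continuously, and this difference in pattern sets much of the sex bias of the mouse liver transcriptome. Bcl6 is a male-biased repressor whose own transcription STAT5 represses and which binds many of the sites that STAT5 binds, while Cux2 is a female-biased repressor of male-biased genes.

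The promoters are shown because STAT5 recognises a short inverted repeat, TTCNNNGAA. RefSeq starts in GRCm38.p6 were found for 6 of the 10 genes and gave 10 start sites, each searched on both strands over the 250 bases upstream. Elovl3, Cyp4a12a, Cyp4a12b and Socs2 had no window and were not searched. The repeat was present in 2 of the 10 windows, both of Bcl6, and in 7.02% of all 32841 promoter windows. The same repeat with a spacer longer by 1 base, a form that other STAT proteins can bind, was present in 1 of the 10 windows, that of Hsd3b5, and in 5.85% of all. ATTGAT, a core of the motif of the liver factor HNF6, was in 0 of the 10 windows and in 6.72% of all. TATAAA was in 3 of the 10, those of Cyp2d9, Ghr and Cux2, and in 12.4% of all. A match is only a description of the letters, and an absent match says nothing about binding. The windows of Hsd3b5, Cyp2d9 and Bcl6 follow, each read 5′ to 3′ toward the start of its gene with the matches in capitals.
Hsd3b5 upstream window, chr3:98645535-98645784, minus strand: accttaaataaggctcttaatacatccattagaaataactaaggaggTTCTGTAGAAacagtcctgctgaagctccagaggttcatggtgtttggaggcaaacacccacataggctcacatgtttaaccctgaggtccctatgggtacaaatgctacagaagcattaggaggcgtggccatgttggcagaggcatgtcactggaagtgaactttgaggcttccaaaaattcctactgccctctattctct
Cyp2d9 upstream window, chr15:82452127-82452376, plus strand: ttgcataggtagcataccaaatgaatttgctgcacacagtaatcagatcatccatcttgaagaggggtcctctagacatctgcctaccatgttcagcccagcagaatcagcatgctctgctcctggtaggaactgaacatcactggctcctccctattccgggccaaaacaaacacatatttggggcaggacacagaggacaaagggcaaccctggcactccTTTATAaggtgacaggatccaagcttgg
Bcl6 upstream window of one start, chr16:23981284-23981533, minus strand: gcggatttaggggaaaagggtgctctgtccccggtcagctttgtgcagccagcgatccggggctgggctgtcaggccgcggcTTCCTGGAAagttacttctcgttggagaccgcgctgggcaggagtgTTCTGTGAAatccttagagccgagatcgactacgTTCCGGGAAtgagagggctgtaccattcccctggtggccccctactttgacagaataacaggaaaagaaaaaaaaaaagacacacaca
Bcl6 upstream window of the other start, chr16:23988853-23989102, minus strand: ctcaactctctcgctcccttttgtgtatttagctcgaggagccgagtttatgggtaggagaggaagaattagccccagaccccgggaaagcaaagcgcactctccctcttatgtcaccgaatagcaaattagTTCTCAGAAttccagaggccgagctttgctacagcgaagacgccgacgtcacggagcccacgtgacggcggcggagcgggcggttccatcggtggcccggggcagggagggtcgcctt
In the Hsd3b5 window the capitals mark the repeat with the longer spacer, 203 to 194 bases before the start. In the Cyp2d9 window they mark TATAAA read on the opposite strand, 28 to 23 bases before the start. In the first Bcl6 window they mark 3 matches of TTCNNNGAA, at 168 to 160, 122 to 114 and 88 to 80 bases before the start, and in the other 1 match at 118 to 110 bases. None of the 4 motifs overlapped another in these windows.

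The arrays detected 15354 to 16352 probes in normal hepatocytes, 18108 to 19482 in HCC, 16444 to 17067 in non-aggregate cells and 16937 to 17903 in aggregate cells, so normal and HCC arrays did not overlap. Signals were compared as log2 intensity after background correction and quantile normalization. The 16 measured hepatocyte markers, such as Alb and Apoa1, were detected in every group and summed to 326360 to 351790 units of normalized signal in normal hepatocytes, 324960 to 351710 in premalignant cells and 303580 to 323720 in HCC. Much of that sum came from probes near the top of the scale, such as those of Apoa1 and Apoa2. Quantile normalization gives the brightest probes of every array much the same values, so the sum does not measure the share of hepatocytes. The HCC arrays also carried more signal from markers of non-parenchymal cells. The 16 measured macrophage markers summed to 1204 to 1878 in normal hepatocytes, 967 to 3405 in non-aggregate cells, 3461 to 10176 in aggregate cells and 10269 to 16572 in HCC, and 12 of them were called higher in HCC than in normal cells. Of 17 endothelial markers 16 were called higher in HCC, with summed signals of 1477 to 4515 in normal cells and 9100 to 13650 in HCC. Of 15 measured stellate and fibroblast markers 11 were called higher, from 601 to 1560 in normal cells to 8814 to 19175 in HCC, and 8 of the 16 on the array, Col1a1 and Lrat among them, were not detected on any normal array. Of the 16 hepatocyte markers 2 were called higher in HCC, among them Alb at 1.69, and 5 lower, among them Ass1 at -1.50. Their median log2 difference was 0.05. Beside these marker counts, 23% of all genes were called higher in HCC than in normal cells and 26% lower. The Alb probe was dim for such a marker, at 8.61, 8.67 and 9.22 on the normal arrays, where Apoa1 read 15.32, 15.29 and 15.06. What the Alb probe detects was not tested. The part of non-parenchymal cells in the results below was not tested.

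Of the 5 male-biased targets, Hsd3b5, Cyp4a12a and Cyp4a12b were among the genes that fell most in HCC, and Elovl3 was not detected there. Hsd3b5, a steroid dehydrogenase family enzyme of male mouse liver, had log2 levels of 12.01, 11.70 and 12.43 on the normal arrays and of 8.55, 9.13 and 5.55 on the HCC arrays. The non-aggregate arrays read 13.14, 11.96 and 12.34 and the aggregate arrays 12.89, 11.65 and 12.17. All 3 HCC arrays lay below all the others, while the other groups overlapped one another. The fall in HCC against normal cells was 4.31 on the log2 scale (difference -4.31, SE 0.72, 95% interval -5.87 to -2.74, 19.8-fold, adjusted p = 0.000446, 3 arrays per group). Without HCC replicate 3, the lowest of its group, it was -3.21 (adjusted p = 0.000114), and without HCC replicate 2 it was -5.00.

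Elovl3, an elongase of very long chain fatty acids, had log2 levels of 8.45, 9.39 and 7.76 in normal hepatocytes. In HCC its probe was not detected on any array, at 4.59, 4.53 and 4.26. The non-aggregate arrays gave 9.81, 7.78 and 7.06 and the aggregate arrays 9.58, 7.60 and 6.61, a spread that covered the normal values. Because HCC had no detected signal the fall is a bound: Elovl3 was at least 15.2-fold lower in HCC than in normal cells, taken against the higher of its own value and the dimmest detected probe of each HCC array (fitted adjusted p = 0.000896). On the submitters' normalized values the fitted difference was -2.91 and without background correction -2.87, in place of -4.07 (adjusted p = 0.00421 and 0.00531).

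Cyp4a12a and Cyp4a12b are near-identical cytochromes P450 that hydroxylate fatty acids such as arachidonic acid at the terminal carbon, and their probes may read both copies. Cyp4a12a had log2 levels of 12.42, 13.07 and 12.61 in normal hepatocytes and of 10.55, 10.29 and 5.87 in HCC. It read 13.47, 13.72 and 13.74 on the non-aggregate arrays and 13.32, 13.42 and 13.44 on the aggregate arrays. Cyp4a12b followed the same order, at 11.70, 12.04 and 11.65 in normal hepatocytes and 8.70, 8.64 and 4.80 in HCC, with 11.87 to 12.43 over the 6 premalignant arrays. For both genes HCC lay below every other array, and HCC replicate 3 lay far below the other HCC arrays. Cyp4a12a was lower by -3.80 (SE 0.89, 13.9-fold, adjusted p = 0.00395) and Cyp4a12b by -4.42 (SE 0.76, 21.4-fold, adjusted p = 0.000549). Without HCC replicate 3 the differences were -2.29 (SE 0.19, adjusted p = 8.86e-06) and -3.13 (adjusted p = 9.76e-07). Without HCC replicate 1 they were -4.62 and -5.08, and without HCC replicate 2 they were -4.49 and -5.05.

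Cyp2d9, a male-biased steroid hydroxylase, was read at 14.50, 14.58 and 14.15 in normal hepatocytes. HCC gave 13.11, 13.44 and 12.78, and the premalignant arrays lay between 14.48 and 14.64. HCC was again below all other arrays, though by less than for the other targets, at -1.30 (SE 0.17, 2.47-fold, adjusted p = 8.81e-05). By size of fitted fall in HCC among the 10641 genes, Cyp4a12b stood at rank 4, Hsd3b5 at 5, Cyp4a12a at 14 and Cyp2d9 at 545. Elovl3 had only a bound in HCC, so its fitted rank of 12 is not read as a measured size.

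**Figure D1:**
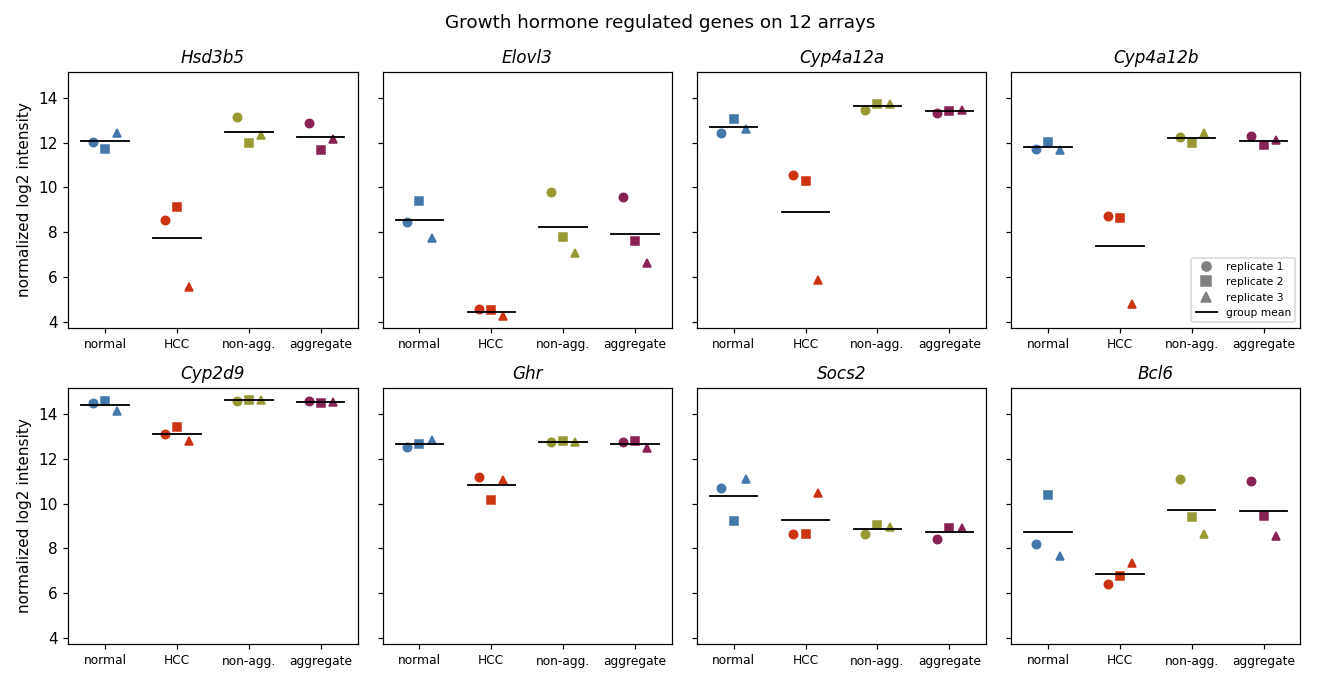
Normalized log2 intensity (y axis) of the 8 tested genes on the 12 arrays, by group (x axis), with a symbol for each replicate number and a bar for the group mean of 3 arrays. The HCC points of Hsd3b5, Elovl3, both Cyp4a12 genes, Cyp2d9 and Ghr lie below all other groups, HCC replicate 3 is lowest for Hsd3b5 at 5.55, and Bcl6 and Elovl3 spread by over 2 log2 units among premalignant arrays.

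Counted together, 6 of the 8 tested genes were called lower in HCC than in normal hepatocytes and 0 higher, where 26% of all genes were called lower and 49% were called in either direction. Under median scaling of the arrays, in place of quantile normalization, the share of higher genes among those called moved from 47% to 67.1%, under cyclic loess to 56.7% and on the submitters' values to 58.8%, and 6 of the 8 were called lower under each. The median difference of the 8 genes was -2.85, against -0.08 over all genes. The HCC arrays lay below all normal arrays for 7 of the 8, which was so for 28.5% of all genes.

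The growth hormone receptor itself was lower in HCC. Ghr was covered by 3 probes, and the brightest, annotated to NM_010284, read 12.52, 12.65 and 12.83 in normal hepatocytes and 11.19, 10.18 and 11.07 in HCC. All 6 premalignant arrays lay between 12.48 and 12.79 and overlapped the normal arrays. The difference between HCC and normal cells was -1.85 (SE 0.23, 95% interval -2.35 to -1.35, 3.61-fold, adjusted p = 5.17e-05). The probe annotated to NM_001048178 moved the same way, from 11.17, 10.82 and 11.04 in normal cells to 8.73, 8.94 and 7.96 in HCC, at -2.46 (SE 0.22, adjusted p = 4.96e-06 over all probes).

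The probe annotated to AK053579, a cDNA clone, disagreed with both. It was dim, at 6.49, 6.10 and 5.91 in normal hepatocytes and 6.12, 5.67 and 6.98 in HCC, groups that overlapped, with a difference of 0.09 (adjusted p = 0.838). It was brighter on the other chip, at 7.05, 7.83 and 7.84 on the non-aggregate arrays and 7.47, 7.85 and 8.04 on the aggregate arrays. Against normal cells this was a difference of 1.62 for the aggregate group (SE 0.32, adjusted p = 0.0182) and 1.40 for the non-aggregate group (adjusted p = 0.0629). What this probe detects was not tested.

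**Figure D2:**
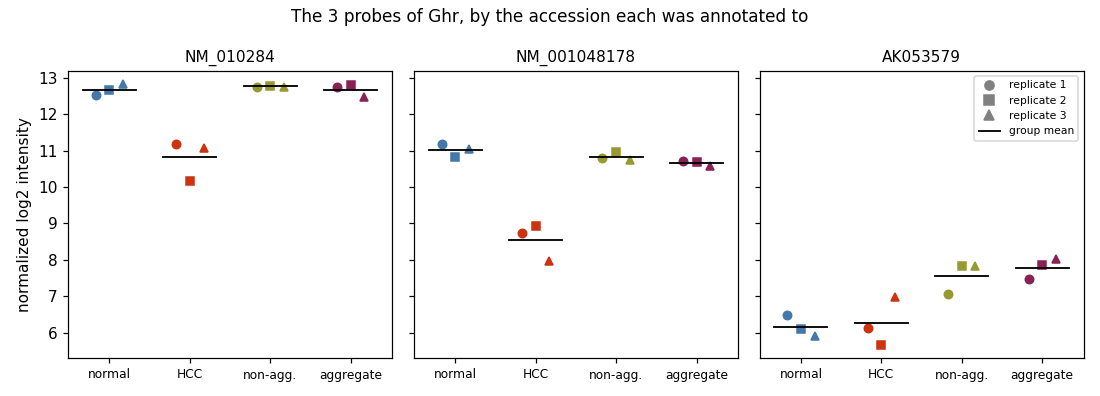
Normalized log2 intensity (y axis) of the 3 Ghr probes on the 12 arrays by group (x axis), 1 panel per probe named by the transcript it was annotated to, with a bar for each group mean. In the first 2 panels HCC is below every other array, and in the third the HCC and normal arrays overlap at 5.67 to 6.98 while both premalignant groups lie above 7.

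Socs2, the SOCS family inhibitor that STAT5 induces and that limits growth hormone signalling, varied widely among arrays of the same group. Its log2 levels were 10.68, 9.22 and 11.08 in normal hepatocytes and 8.66, 8.65 and 10.46 in HCC, so the groups overlapped. The non-aggregate arrays read 8.65, 9.03 and 8.96 and the aggregate arrays 8.43, 8.91 and 8.91, all below the lowest normal array. The difference between HCC and normal cells was -1.07 (SE 0.50, adjusted p = 0.0961) and did not pass the test. It passed without HCC replicate 3, at -1.67 (adjusted p = 0.00794), and without normal replicate 2, at -1.62 (adjusted p = 0.0148). Across the chips the differences from normal cells were -1.45 for the non-aggregate group (SE 0.50, adjusted p = 0.201) and -1.58 for the aggregate group (SE 0.50, adjusted p = 0.095), and neither passed. The aggregate difference passed without normal replicate 2, at -2.13 (adjusted p = 0.0347). A further Socs2 probe, annotated to AK033206, was not detected on any array.

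The repressor Bcl6 was low in HCC and spread over several log2 units elsewhere. It read 8.19, 10.36 and 7.67 in normal hepatocytes, 6.42, 6.76 and 7.37 in HCC, 11.09, 9.40 and 8.66 on the non-aggregate arrays and 11.03, 9.44 and 8.57 on the aggregate arrays. All 3 HCC arrays were below every other array. The difference from normal cells was -1.89 (SE 0.78, 95% interval -3.59 to -0.20) with an adjusted p of 0.0617, so it was not called. It was called when only these groups were fitted, with the same difference (adjusted p = 0.0465), and without normal replicate 3, at -2.43 (adjusted p = 0.0356), and without normal replicate 2 it was -1.08 (adjusted p = 0.257).

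For Stat5b and Cux2 the arrays gave no usable level. The single Stat5b probe was not detected on any of the 12 arrays, at log2 values of 4.22 to 4.38, near the floor of the scale. Of the 3 Cux2 probes, one was detected only on HCC replicate 3, at 5.75, one only on normal replicate 3, at 4.84, and one on no array. These values do not show that either gene is absent, since a probe can fail to detect its transcript.

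No tested gene was called between the aggregate and non-aggregate fractions. The count was 0 of 8, where 0.761% of all genes were called, all 81 of them higher in aggregates. In limma's fit, 0 of the 8 had an unadjusted p below 0.05 either. The differences ran from -0.28 for Elovl3 to -0.04 for Bcl6, each with an adjusted p of 1. The 95% intervals were -1.81 to 1.33 for Hsd3b5, -1.93 to 1.36 for Elovl3, -0.45 to 0.31 for Cyp2d9 and -0.59 to 0.41 for Ghr, and differences within these bounds were not detectable in this fit, whose intervals use the spread over all 12 arrays, including that of HCC replicate 3.

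**Figure D3:**
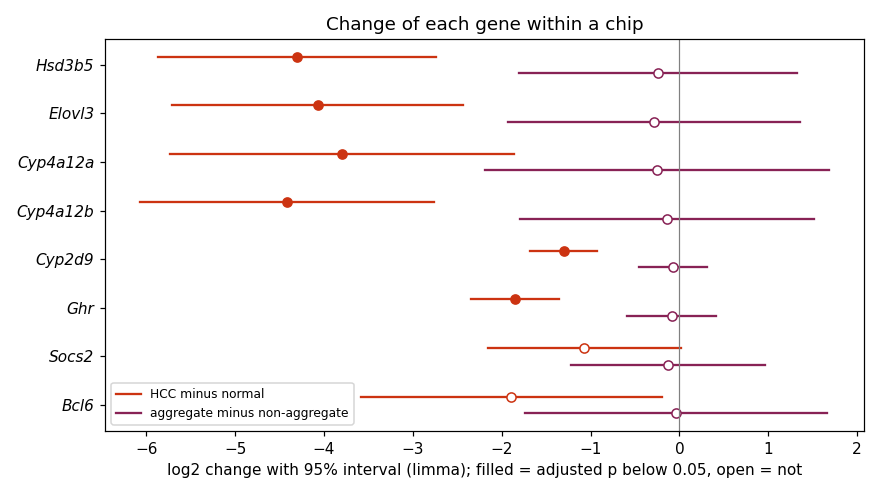
Log2 difference with its 95% interval (x axis) for the 8 tested genes (y axis), HCC minus normal hepatocytes and aggregate minus non-aggregate cells, with filled points for an adjusted p below 0.05. The 6 filled points are all for HCC, from Cyp4a12b at -4.42 to Cyp2d9 at -1.30, and the aggregate points lie between -0.28 and -0.04; the Elovl3 point for HCC is the fitted value of a gene not detected there.

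Same-numbered arrays of the fractions deviated together over all genes, so each number was also read as a pair. Bcl6 spanned 2.44 log2 units over the 3 non-aggregate arrays and 2.45 over the aggregate arrays, and within a pair it differed by at most 0.08. Elovl3 spanned 2.76 and 2.98 units and differed by at most 0.45 within a pair, and Hsd3b5 spanned 1.19 and 1.24 and differed by at most 0.30. The level of these genes on a premalignant array therefore went with its replicate number far more than with its fraction. That was not so for every member. Cyp4a12a differed by up to 0.30 within a pair and spanned 0.27 over the non-aggregate and 0.12 over the aggregate arrays. Cyp2d9 differed by up to 0.16 and spanned 0.06 and 0.09. For Bcl6 the SD among non-aggregate arrays was larger than that of 99.6% of all genes and for Elovl3 larger than that of 99.8%. Numbered pairs also lay side by side on the chip, and whether a number marks a mouse, a day or a position was not tested.

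Within the pairs the aggregate array was lower in 19 of 24 comparisons of a gene. Hsd3b5, Elovl3, Cyp4a12a and Socs2 were lower in aggregates in all 3 pairs, which was also true of 26.5% of all genes. When only the premalignant arrays were fitted, with the replicate number as a block, the SE of the Hsd3b5 difference shrank from 0.72 to 0.075 and that of Elovl3 from 0.75 to 0.088, and the adjusted p were 0.166 and 0.165. Of the 8 genes 0 were called in that fit, where 4.6% of all genes were called, 4.2% as higher and 0.395% as lower.

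The feedback inhibitor Cish, a further STAT5 target, showed the arrays of number 1 as distinct in both fractions. Its log2 level was 6.32, 10.14 and 9.25 on the non-aggregate arrays and 6.63, 10.24 and 9.08 on the aggregate arrays, against 10.02, 10.10 and 10.22 in normal cells and 9.19, 9.04 and 9.57 in HCC. On the number 1 arrays of both fractions Cish and Socs2 were at their lowest and Bcl6, Elovl3 and Hsd3b5 at their highest. In normal hepatocytes replicate 2 had the highest Bcl6 and Elovl3 and the lowest Socs2, but its Hsd3b5, at 11.70, was the lowest of the group and its Cish, at 10.10, lay between the others. These orders were seen after the values were known and are given as a description of 3 arrays per group.

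**Figure D4:**
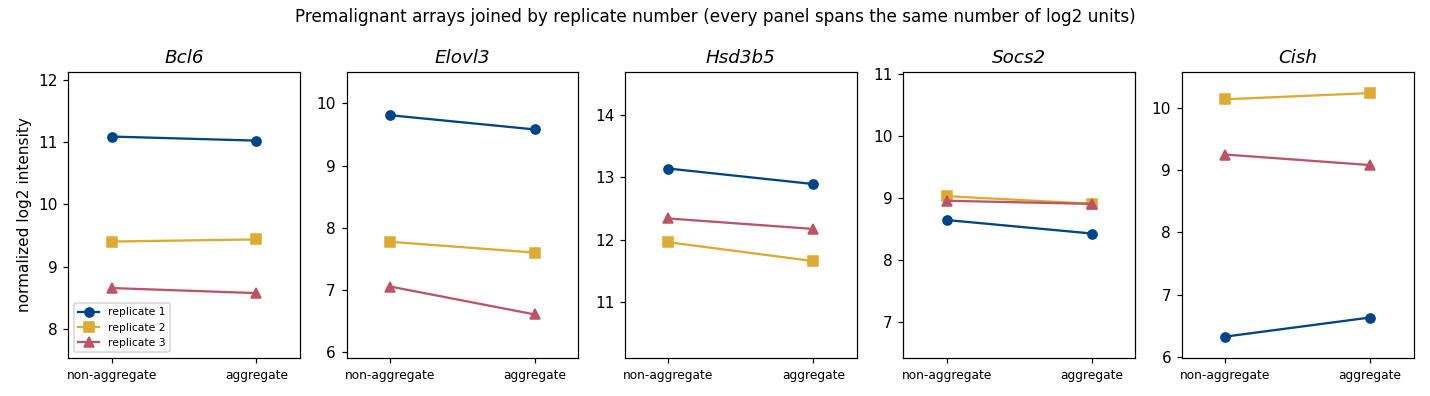
Normalized log2 intensity (y axis) of Bcl6, Elovl3, Hsd3b5, Socs2 and Cish in the non-aggregate and aggregate fractions (x axis), with a line joining the arrays of each replicate number. The lines are nearly flat, with a largest difference of 0.45 for Elovl3, and lie far apart for Bcl6, Elovl3 and Cish, where number 1 is highest, highest and lowest.

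No tested gene was called between either premalignant fraction and normal hepatocytes. Of the 8 genes 0 were called in non-aggregate cells, where 1.49% of all genes were called, 0.714% as lower and 0.78% as higher. In aggregate cells 0 of the 8 were called, where 5.07% of all were, 1.74% as lower and 3.33% as higher. At an unadjusted p below 0.05, 1 gene, Socs2, was lower in each. The other differences ran from -0.32 for Elovl3 to 0.98 for Bcl6 in non-aggregate cells and from -0.60 for Elovl3 to 0.94 for Bcl6 in aggregate cells. Both comparisons share the normal arrays and lie across the chips.

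Between HCC and aggregate cells, also across the chips, 7 of the 8 genes were called lower, where 35.1% of all genes were called, 17.7% as lower and 17.5% as higher. The exception was Socs2, at 0.51 (SE 0.50, adjusted p = 0.467). Bcl6 was among those called, at -2.83 (SE 0.78, adjusted p = 0.0141), but was not called without aggregate replicate 1, at -2.16 (adjusted p = 0.0624). Elovl3 was at least 10.01-fold lower. The fitted values moved with single arrays: without HCC replicate 3 Hsd3b5 was -3.40, Cyp4a12a -2.98 and Cyp4a12b -3.41, in place of -4.50, -4.49 and -4.70, and without aggregate replicate 1 the fitted value of Elovl3, not detected in HCC, was -2.64 in place of -3.47. The Ghr difference was -1.86 (SE 0.23, adjusted p = 8.81e-05), close in size to that between HCC and normal cells.

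Whether the change in HCC differed from the change in aggregates was tested directly, as the difference of the within-chip differences. It was called lower for 5 of the 8 genes, where 20.8% of all genes were called, 10% as lower and 10.8% as higher. The differences were -4.28 for Cyp4a12b (SE 1.08, adjusted p = 0.0158), -4.07 for Hsd3b5 (SE 1.02, adjusted p = 0.0154), -3.79 for Elovl3 (adjusted p = 0.026), a fitted value since it was not detected in HCC, -1.76 for Ghr (adjusted p = 0.00323) and -1.23 for Cyp2d9 (adjusted p = 0.00488). Without HCC replicate 3 Cyp4a12b was -2.99 and Hsd3b5 -2.97. The call for Elovl3 was lost in 7 alternative fits, with adjusted p up to 0.078. Cyp4a12a, at -3.55, missed the threshold (SE 1.26, adjusted p = 0.0644). It passed without HCC replicate 1, at -4.37 (adjusted p = 0.0223), without HCC replicate 2, at -4.24 (adjusted p = 0.0356), and without HCC replicate 3, at -2.04 (adjusted p = 0.000585). Socs2 (-0.94, adjusted p = 0.373) and Bcl6 (-1.85, adjusted p = 0.253) did not pass.

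Of 16 other tested genes of the signalling route 3 were called higher in HCC and 1 lower, where 23% of all genes were called higher and 26% lower. The list had a median difference of -0.05 against -0.08 over all genes, and in 15 other fits the median ran from -0.15 to 0.13. Jak2, the kinase bound to the receptor, differed by -0.02 (adjusted p = 0.948), Stat5a, the other STAT5 form, by -0.41 (adjusted p = 0.326) and Stat3 by 0.00 (adjusted p = 0.997). Called higher were the insulin receptor Insr at 1.06 (SE 0.18, adjusted p = 0.000417), the adaptor Shc1 at 0.93 and the phosphatase Ptpn6, known from blood cells, at 0.57, which was not called when only these groups were fitted (adjusted p = 0.0582). Socs3, the cytokine-induced inhibitor, was lower in HCC at -1.71 (SE 0.42, adjusted p = 0.00536), and lower than normal in both premalignant fractions across the chips, at -2.70 in non-aggregate cells (adjusted p = 0.0137) and -2.75 in aggregate cells (adjusted p = 0.00453). Cish, at -0.85 in HCC, was not called (SE 0.92, adjusted p = 0.466), in a fit whose spread includes the low number 1 arrays of both fractions. Its 3 HCC arrays all lay below its 3 normal arrays, and with only these groups fitted it was called lower (SE 0.20, adjusted p = 0.0124).

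Of 9 tested genes of the growth axis, 2 fell in HCC and 3 rose, beside 26% lower and 23% higher among all genes, and 4 fell when only these groups were fitted. Igf1, the growth factor that the liver secretes under growth hormone, went from 12.80, 12.88 and 12.89 in normal hepatocytes to 10.42, 10.87 and 11.63 in HCC, at -1.89 (SE 0.25, adjusted p = 7.59e-05). Igfals, which keeps circulating IGF in its large complex, was lower at -1.35 (SE 0.28, adjusted p = 0.00204). Igfbp1, the insulin-repressed IGF binding protein, was higher at 3.55 (SE 0.39, adjusted p = 2.41e-05), and at 2.96 without normal replicate 3. Igfbp3, not detected in normal cells and read at 6.77, 7.79 and 10.20 in HCC, was at least 10.4-fold higher. That bound was 5.29-fold without HCC replicate 3 and 17.4-fold without HCC replicate 1. The acute-phase inhibitor Serpina3n was higher at 0.80 (adjusted p = 0.00907). Igf1 was read at 12.18 to 12.66 on the premalignant arrays and was not called there against normal cells.

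Other male-biased liver genes mostly fell in HCC with the targets above. Of 24 tested, 19 were called lower and 2 higher, where 26% of all genes were called lower and 23% higher. The median difference was -1.82, against -0.08 over all genes, and by HCC array the median ran from -2.06 to -1.54 relative to the normal mean. In 15 other fits of the same genes 14 to 19 were called lower, 16 of them without HCC replicate 3, and with no detection filter 17 of 26 were. Sult2a8, a bile acid sulphotransferase, differed by -5.05 (SE 0.31, adjusted p = 2.99e-07), Serpina4-ps1 by -4.16 and Cyp7b1, the oxysterol hydroxylase, by -3.61 (SE 0.41, adjusted p = 2.81e-05). Moxd1 differed by -4.09 (SE 1.23, adjusted p = 0.0159), though 1 normal array, at 5.25, was close to the HCC range of 4.25 to 4.70 and the other normal arrays read 10.90 and 9.67. It was detected on 1 of 3 HCC arrays, so its size rests on values near the detection limit, and it was not called without normal replicate 2 (-2.94, adjusted p = 0.0728) or normal replicate 3 (-3.56, adjusted p = 0.0586), while without normal replicate 1 it was -5.77. The organic anion transporter Slco1a1, not detected in HCC, was at least 3.73-fold lower. Tff3, a mucosal peptide, rose against this direction, at 5.37 (SE 0.76, adjusted p = 0.00014), with detection on 2 of 3 normal arrays. Without normal replicate 1 Tff3 was 4.44 and without HCC replicate 2 it was 4.60. The other male-biased gene that rose was Serpina12, at 1.93 (SE 0.16, adjusted p = 2.85e-06).

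Among female-biased liver genes, 9 of the 18 tested were called higher in HCC and 2 lower, where 23% of all genes were called higher and 26% lower. Of the 27 on the array 9 missed the filter, and some passed it only through groups where they were high, such as Cyp2b13 and Sult2a2, detected on 0 of 3 normal arrays, so the count over those tested describes them alone. With no detection filter 8 of 27 were called higher and 2 lower, with a median difference of -0.03, against 1.48 over the 18. Cyp2a4, a steroid hydroxylase whose probe may also read Cyp2a5, went from 5.94, 5.16 and 6.63 in normal hepatocytes to 13.12, 13.15 and 13.20 in HCC, at 7.25 (SE 0.57, adjusted p = 1.74e-06). Cyp2b9 was higher by 6.78 (SE 0.65, adjusted p = 8.54e-06), with normal replicate 1 left out by 7.58, and 2 of 3 normal arrays detected it. Cyp2b13 was at least 18.3-fold higher, and the peroxisomal transporter Abcd2 was higher by 4.29 (SE 0.46, adjusted p = 1.93e-05), or by 3.70 without HCC replicate 3, and was detected on 1 of 3 normal arrays. Cyp2b10, induced by drugs through the receptor CAR and detected on 1 of 3 HCC arrays, and the transporter Slco1a4 differed the other way, by -3.67 and -2.99.

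**Figure D5:**
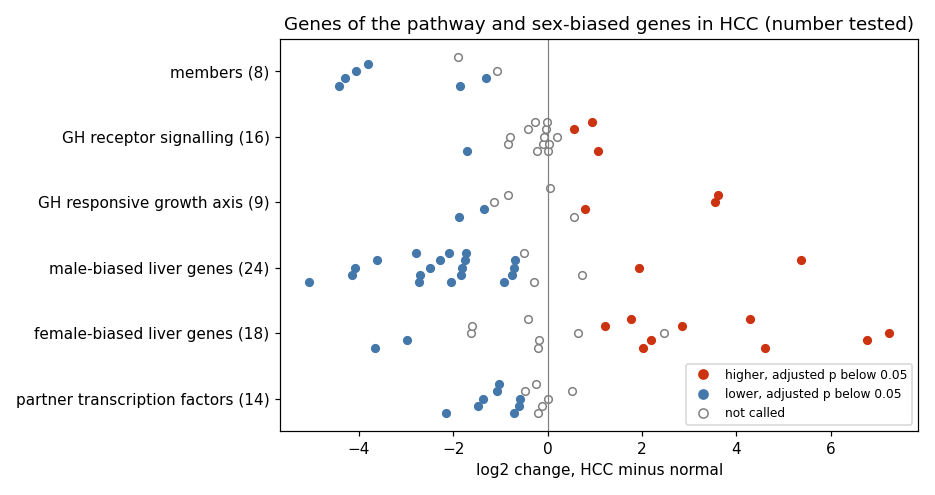
Log2 difference between HCC and normal hepatocytes (x axis) for each tested gene of the 6 lists (y axis, number tested in brackets), 1 point per gene, filled where the adjusted p was below 0.05. The members and the male-biased list lie mostly to the left, with Sult2a8 at -5.05 and Tff3 at 5.37 as the ends of the male-biased list, and the female-biased list reaches 7.25 for Cyp2a4.

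In the premalignant fractions a few female-biased genes were called against normal cells. In aggregates 4 of 18 female-biased genes were called higher and 0 lower, where 3.33% of all genes were called higher and 1.74% lower. They were Cyp2a4 at 5.64 (SE 0.57, adjusted p = 0.000434), Cyp2b9 at 3.98 (SE 0.65, adjusted p = 0.00596), Cyp2b13 at least 11.3-fold higher and Sult2a2 at least 2.17-fold higher. Cyp2b13 and Sult2a2, detected on 0 of 3 normal arrays, passed the filter only through groups where they were high. The count therefore describes only the 18 tested of 27 on the array, and no count without the filter was made here. In non-aggregate cells 1 was called higher, Cyp2a4 at 3.46 (adjusted p = 0.0142), and 1 lower, Nipal1, at least 2.92-fold lower. There 0.78% of all genes were called higher and 0.714% lower. Of the 24 male-biased genes 2 were called in aggregates, Tff3 at 3.92 (adjusted p = 0.0148) and Gna14 at 1.28 (adjusted p = 0.0406), both higher, and 0 in non-aggregate cells. The median difference of the male-biased list was 0.00 in aggregates and 0.06 in non-aggregate cells. Between the fractions 0 genes of any of these lists were called, where 0.761% of all genes were. The median was 0.36 for the female-biased and -0.08 for the male-biased list, against -0.03 over all genes.

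The pairs gave another count for the lists, in a fit applied to the lists after seeing the data. With only the premalignant arrays and the replicate number as a block, 7 of the 18 female-biased genes were called higher in aggregates and 0 lower. Of all genes 4.2% were called higher and 0.395% lower. Some of the 18 passed the filter only through groups where they were high, so this count describes those tested alone. No count without the filter was made for this fit. Cyp2a4 differed by 2.18 (SE 0.22, adjusted p = 0.0158), with pair differences of 2.81, 1.65 and 2.07, Cyp2b13 by 2.40 (adjusted p = 0.00385) and Cyp2b9 by 1.66 (adjusted p = 0.0142). The aggregate array was the higher one in all 3 pairs of each. The others were Sult2a2, Cyp17a1, Abcd2 and Nipal1, and of the 7 genes Sult2a2, Cyp2b13, Abcd2 and Nipal1 were detected on fewer than 3 non-aggregate arrays. Across the chips, the Nipal1 aggregate arrays, at 5.26, 5.70 and 5.05, overlapped the normal arrays, at 5.49, 6.86 and 6.58. So did those of Cyp17a1, at 8.30, 10.01 and 7.90 against 8.32, 7.76 and 8.86. For the rest of the 7 every aggregate array lay above every normal array. Of the 24 male-biased genes 2 were called higher, Tff3 at 2.91 (adjusted p = 0.00385) and Gstp2 at 0.82, and 1 lower, Susd4 at -0.64. Of the 9 growth axis genes Igfbp1 was called higher at 1.59 (adjusted p = 0.0105), as was Igfbp3, not detected in non-aggregate cells. Across the chips, the non-aggregate arrays of Igfbp1, at 6.65, 6.51 and 6.65, lay below every normal array, at 9.86, 10.33 and 8.34. Among its aggregate arrays only number 2, at 8.42, was above any normal array. On these arrays the higher Igfbp1 level in aggregates was not a rise above the normal values. Chip and group cannot be told apart in that comparison. Of the signalling and transcription factor lists 0 genes were called. Macrophage markers also summed higher on the aggregate arrays, as given above. Endothelial markers summed to 5683.1 to 8552.3 in aggregate and 2339.5 to 3111.5 in non-aggregate cells. Stellate and fibroblast markers summed to 3080.7 to 4549.5 and 548.8 to 1094.3. Lymphocyte markers overlapped, at 807.8 to 909.2 and 826.0 to 908.9. The part of non-parenchymal cells in these differences was not tested.

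A list of liver transcription factors and hormone receptors with a part in sex-biased or growth hormone dependent transcription was also read. Of 14 tested, 8 were called lower in HCC and 0 higher, where 26% of all genes were called lower and 23% higher. In the other fits 5 to 8 were called lower, 5 of them under median scaling. Onecut2 differed by -2.15 (SE 0.20, adjusted p = 6.39e-06), the nuclear receptor Nr1i2 by -1.47, and the C/EBP factors Cebpb by -1.36 and Cebpa by -1.07 (SE 0.33, adjusted p = 0.017). Cebpa was not called without HCC replicate 3 (-0.66, adjusted p = 0.0589) or normal replicate 3 (-0.93, adjusted p = 0.0605). In the premalignant fractions 0 of the 14 were called against normal cells, where 1.49% of all genes were called in non-aggregate and 5.07% in aggregate cells.

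The genes whose pattern over the 12 arrays lay nearest to that of each member were found by the root mean square difference of centred log2 values, over all 10641 genes and as a description. The measure scales with how far a gene itself varies, and the SD over the 12 arrays was 2.24 for Hsd3b5 and 0.89 for Ghr. For Hsd3b5 they were Car3 at 0.54, Etnppl at 0.60 and Cyp7b1 at 0.61, and for Elovl3 Ces3b at 0.83, Hacl1 at 0.84 and Etnppl at 0.84. For Ghr they were Abhd18 at 0.12, Nxt2 at 0.15 and Nudt12 at 0.16. For Socs2 they were Steap4 at 0.43, Nfkbiz at 0.48 and Hnrnph1 at 0.49, and for Bcl6 Cyp3a11 at 0.73, Gm4952 at 0.73 and Retsat at 0.79. The 12 arrays fall in 4 groups on 2 chips, so a gene that differed in HCC alone is near to others that did so.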

How the data were processed

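Per the labels' protocols, total RNA was purified, biotin labelled and hybridised to Illumina bead arrays. The deposited table holds the mean bead signal intensity of each probe and a detection p-value, per the file headers, and a second deposited table holds intensity values normalized by the authors, which served as an alternative, with a method not stated in any source used here.

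The intensity was background corrected with normexp from the detection p-values (offset 16), quantile normalized and taken to log2 with neqc in limma 3.58.1 (R 4.3.3), since the authors deposited it without background subtraction (lowest value 30.6). The filter kept 19670 probes, and 34885 of 45281 probes had 1 gene, 18 several and 10378 none listed; of the gene IDs 34807 were found in RefSeq. limma (lmFit and eBayes, 2-sided) was fitted with 4 group means over all 12 arrays, p-values were Benjamini-Hochberg adjusted over 10641 genes, and an adjusted p below 0.05 was a call. The fit was tested on simulated data. Log2 differences carry their SE, with 3 arrays a group; the number of arrays limits the precision.

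The members, the lists and the rule for named genes were chosen with earlier results of these data known. Named were all 10 members, any measured gene of the signalling list, up to 4 called genes with the largest change for each list and comparison, and the 3 nearest genes for 5 members; Slco1a1, Serpina12, Serpina3n, Alb, Ass1, Gstp2, Susd4, Col1a1 and Lrat were named after their values were seen. Of 211 list entries in 13 lists 188 were on the array. The labels repeat the replicate numbers in each group. After subtracting group means, aggregate arrays correlated over genes with the non-aggregate array of their number at 0.706, 0.541 and 0.638, so those numbers were taken to pair the arrays; for HCC and normal arrays the correlations were -0.011, 0.123 and 0.101, and they were not. Alternatives changed the background correction, normalization, filter, probe choice, arrays fitted, weights, replicate block and left out each array in turn. For single list genes the fits that left out an array or kept only the groups compared were also added after seeing the data. Motifs were searched and figures drawn with Python 3.11.15 and matplotlib 3.10.9.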

Additional observations from a re-analysis of the deposited data

How the results depend on the processing

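Over 25 alternative settings 836 of 880 values of single genes kept their direction and their side of the threshold. The calls of Hsd3b5, Elovl3, Cyp4a12a, Cyp4a12b, Cyp2d9 and Ghr as lower in HCC than in normal cells held in each setting run, and 6 to 7 of the 8 genes were called when an array was left out. With the replicate block and only those groups fitted, where the numbers do not pair, 8 were called, with Socs2 at -1.07 (adjusted p = 0.0389) and Bcl6 at -1.89 (adjusted p = 0.0358). In the block fit over all 12 arrays the count was 6, and the block changed no other call of a member within a chip. Leaving out an array gave 6 to 7 genes lower in HCC than in aggregates, 0 to 1 lower in aggregates than in normal cells, and 4 to 6 lower in the test of the difference between changes.

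Each probe taken by itself gave 1 gene higher in aggregates than in normal cells, Ghr through its AK053579 probe, and array weights gave 1 lower, Socs2 at -1.39 (adjusted p = 0.0471). In the test of the difference Elovl3 was not called without background correction, on the submitters' values or with no detection filter, and Cyp4a12a was called on the submitters' values (-3.21) and with array weights (-3.42). The median over all genes moved from -0.08 to 0.14 under median scaling for HCC against normal cells.

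Among all genes the 81 called between the fractions became 26 without background correction, 216 under median scaling, 153 under cyclic loess, 40 on the submitters' values, 27 with no detection filter, 225 with only those groups, 489 with the replicate block as well, 379 with array weights, 54 with the replicate block over all arrays, 90 with it on the premalignant arrays only (chosen after seeing the data), and 16 to 139 with an array left out. The 159 called between non-aggregate and normal cells became 62 with only those groups, 0 with the block as well (limma) and 516 with array weights, and 20 to 368 with an array left out. The 539 called between aggregate and normal cells became 135 with the block and only those groups and 1035 with array weights, and 163 to 604 with an array left out. The 3738 called between HCC and aggregates became 2135 with the block and only those groups.

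Signs turned only for values that were not called. Between the fractions Bcl6 was 0.065 with array weights; with an array left out Bcl6 ran from -0.71 to 0.65, Elovl3 from -1.11 to 0.51, Hsd3b5 from -0.57 to 0.091, Socs2 from -0.25 to 0.030 and Ghr from -0.15 to 0.0083. For aggregate against normal cells, median scaling gave -0.091 for Cyp2d9 and -0.15 for Ghr and the submitters' values gave -0.0036 for Ghr; with an array left out Ghr ran from -0.071 to 0.10, Cyp2d9 from -0.0088 to 0.21, Hsd3b5 from -0.13 to 0.49 and Elovl3 from -1.43 to 0.058. Elovl3 in non-aggregate against normal cells ran from -1.12 to 0.26, and Socs2 in HCC against aggregates from -0.096 to 0.81. The cause of these turns was not tested. Signals near the detection limit (Elovl3 in HCC, Stat5b, Cux2) give only bounds or no level.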
